A study of Mus musculus with 12 samples.

Results

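CD62Lhi regulatory T cells (Tregs) of Ezh2 knockout (KO) and heterozygous (HET) mice were compared in 5 of the 12 libraries of the series, 3 KO and 2 HET. They were selected by the genotype and the CD62L fraction on their labels, with no use of expression values. Tregs are CD4+ T cells that hold immune responses in check, and CD62L is the homing receptor by which resting T cells enter lymph nodes. HET cells came from Foxp3YFP-Cre/Foxp3WT;Ezh2fl/+ females and KO cells from Foxp3YFP-Cre/Foxp3WT;Ezh2fl/fl females, all C57BL/6, with Tregs sorted from spleen and lymph node. Both genotypes therefore carried the same Cre, driven from the Foxp3 locus and thus active in Tregs, and the comparison group was not wild type but had 1 floxed Ezh2 allele. In such females Foxp3, an X-linked gene, is intact on the other X chromosome, so Tregs without the Cre are also present in the animal. The sources used here give neither the age of the mice nor the markers of the Treg gate, and do not say whether replicate libraries came from separate mice. The p-values below thus measure the spread between these libraries, which may be technical. The remaining HET CD62Lhi library, marked on its label as removed for low read counts, was not used, since only 589 of its 23846 gene entries had a value above 0. CD62Llo libraries (3 HET, 3 KO) entered the fit as a source of spread and as a comparison.

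Ezh2 is the catalytic subunit of Polycomb repressive complex 2 (PRC2), which places methyl groups on lysine 27 of histone H3 (H3K27me3), a mark of silenced genes that is read by Polycomb repressive complex 1 (PRC1). In T cells PRC2 is known for holding developmental regulators and genes of alternative lineages silent, and Ezh2 itself is induced when T cells are activated. Ezh1 is a second catalytic subunit that is expressed in resting cells. The comparison asks what CD62Lhi Tregs of the KO label keep and what shifts.

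No gene passed the test between KO and HET CD62Lhi Tregs, and nearly all expressed genes were held to a difference of less than 2-fold. Expression was measured as FPKM (fragments mapped to a transcript, scaled to its length and to the depth of the library), and 11431 genes that reached an FPKM of 1 in 2 or more libraries were tested on the log2(FPKM + 1) scale with limma, with Benjamini-Hochberg adjustment. At an adjusted p of 0.05, 0 genes (0%) were called, and the smallest adjusted p was 0.771. At an unadjusted p under 0.05 there were 328 genes (2.87%), of which 94 (0.822%) were higher and 234 (2.05%) lower in KO. Since a missed threshold does not show that levels are alike, each gene was also tested against bounds of 2-fold in either direction (2 one-sided tests on the same fit, adjusted in the same way). By that test 11084 genes (97%) were held within 2-fold and 10533 (92.1%) within 1.5-fold. The pseudocount narrows differences of weakly expressed genes, but among the 8243 genes with a mean FPKM of at least 5 the counts were 8018 (97.3%) and 7813 (94.8%). The median absolute log2 difference was 0.07 with a median standard error (SE) of 0.10, and 98.2% of genes had an absolute log2 difference under 0.5. Of the 347 genes not held within 2-fold, 179 were small RNA genes and 122 had a mean FPKM under 5, and 60 fell in neither class.

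The spread between genotypes was of the size of the spread within them. The 2 HET CD62Lhi libraries differed by a median of 0.09 (absolute log2) and the 3 pairs of KO libraries by 0.08 to 0.11. The 6 pairs of a HET with a KO CD62Lhi library differed by 0.07 to 0.12. Pearson r of log2(FPKM + 1) across genes was 0.952 for the HET pair, 0.964 to 0.978 for the KO pairs and 0.952 to 0.966 for the mixed pairs. For scale, HET CD62Lhi against HET CD62Llo libraries differed by a median of 0.18 to 0.22.

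**Figure D1:**
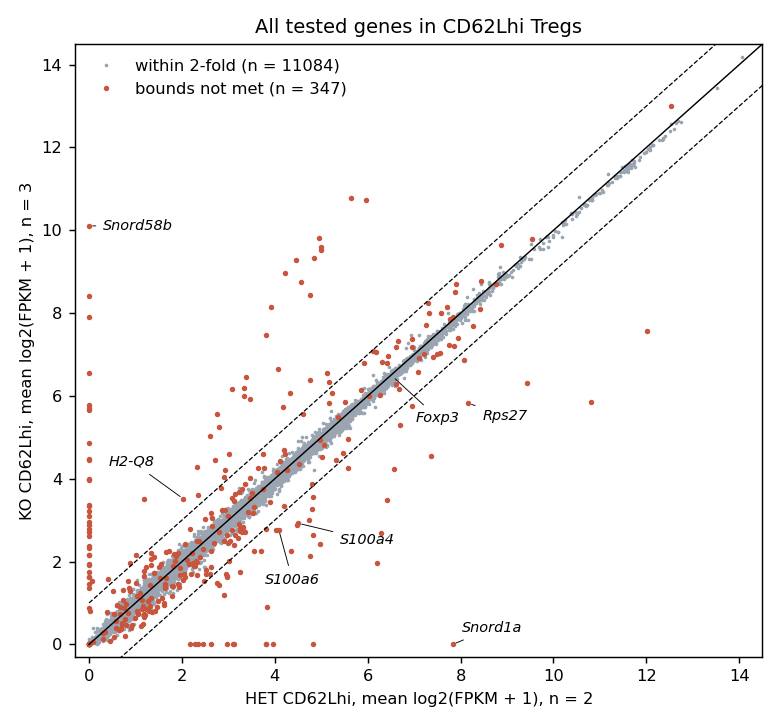
Mean log2(FPKM + 1) of each tested gene in HET CD62Lhi (x axis, 2 libraries) and KO CD62Lhi (y axis, 3 libraries). The solid line marks equal levels and the dashed lines a 2-fold difference. Grey points are the 11084 genes held within 2-fold, and red points the 347 that were not, many of them small RNA genes listed at or near 0 in 1 genotype.

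The depth implied by the deposited interval bounds, an estimate, was, in units of 1e6 fragments, 11.9 and 9.53 for the HET libraries and 25.1, 23.5 and 11 for the KO libraries. In this order of libraries, which is kept below (HET replicates 1 and 2, then KO replicates 1, 2 and 3), the median half-width of the authors' interval for genes at FPKM 5 to 20 was 9.88% and 10.3%, then 6.48%, 6.82% and 9.99%. The summed FPKM of 10 T cell and Treg defining markers was 2276, 2453, 2318, 2425 and 2379, and all 10 were held within 2-fold, so both genotypes expressed what their label names. Levels of markers of other cells were uneven between libraries, and those of red cells were high in some. Summed levels of 14 B cell markers were 131, 109, 105, 106 and 178, of 14 CD8 T and NK markers 104, 78.5, 72.8, 81.1 and 66.3, and of 6 plasma cell markers 33.4 to 42.6. The sum over 20 myeloid markers was 82.3, 27.3, 32.5, 48.5 and 28.7, with S100a9 and Elane at 0 throughout. The sum over 11 red cell and platelet markers was 144, 144, 9.65, 47.2 and 319, with Hba-a1, a haemoglobin gene, at 96.5, 108, 6.66, 34.1 and 225 and Pf4 at 0 throughout, and of 14 stromal and endothelial markers 13 were under 1 in every library. In sorted bulk samples fewer cells of a type and less RNA per cell cannot be told apart.

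Ezh2 (mm10 chromosome 6, 47530274 to 47595030) had FPKM of 12.7 and 12.5 in the HET libraries and 9.15, 11.5 and 11 in the KO libraries. All 3 KO values lay below both HET values, with means of 12.6 ± 0.144 (SD, n = 2) and 10.6 ± 1.24 (n = 3) and a log2 difference of -0.24 (SE 0.12, 95% interval -0.51 to 0.04, adjusted p = 1). Ezh2 was held within 2-fold (adjusted p = 8.35e-05 for the bounds). A floxed allele that has lost some exons can still yield a transcript, and a whole-gene FPKM does not separate the deleted part, so the labels are only partly checked by this gene. Whether Tregs without the Cre were among the sorted KO cells was not tested. Levels called kept below are thus those of libraries labelled KO.

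The other Polycomb subunits were held within 1.5-fold between the genotypes, though more PRC1 genes had lower than higher KO values. All 12 PRC2 genes, all 20 PRC1 genes and all 29 demethylases and partner chromatin enzymes were held within 1.5-fold, with median log2 differences of -0.01, -0.07 and -0.00 beside -0.02 for all tested genes. Of the 20 PRC1 genes 15 had a lower KO mean on the log2 scale. Without overlap 7 of them were lower and 1 higher (14.4% and 7.83% of all tested genes). For Pcgf2, with means of 0.406 in HET and 0.275 in KO, the bound says little, because the pseudocount narrows its difference. Ezh1 (chromosome 11, 101191115 to 101226450) had FPKM of 19.99, 20.2, 20.3, 19.9 and 19.1, a log2 difference of -0.02 (95% interval -0.18 to 0.13). Its HET and KO values overlapped. Eed, the subunit that binds H3K27me3, had 27.2, 26.3, 24.7, 26.3 and 26.8, and Suz12, the scaffold subunit, had 21.0, 21.0, 19.7, 23.7 and 23.96. Jarid2 and Mtf2, accessory subunits, had log2 differences of 0.01 and 0.04. Among PRC1 genes the lowest log2 difference was that of Cbx8, a reader of H3K27me3, with 8.98 and 10.6 in HET and 7.61, 7.72 and 7.29 in KO (log2 -0.33, SE 0.11, unadjusted p = 0.0146). Of the H3K27 demethylases, Kdm6a had a log2 difference of 0.04 and Kdm6b one of -0.22, with 21.7 and 19.9 in HET and 19.5, 17.5 and 16.4 in KO. Dnmt1, the maintenance DNA methyltransferase, had 35.8, 36.3, 36.1, 36.0 and 35.8.

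Classical Polycomb targets, the developmental regulators that PRC2 silences in many cell types, were also silent in KO CD62Lhi Tregs. Of 56 listed genes, 54 were under an FPKM of 1 in all 5 libraries, 22 were listed at 0 in all 5, and 52 were too low to be tested. Among those 52 no single value exceeded 0.303. The KO mean was above the HET mean for 16 of the 56 and below it for 18. The genes above 1, Pax5 and Ebf1, are also B cell factors and had log2 differences of -0.09 and -0.13. Cdkn2a, a cell cycle inhibitor locus and a much studied PRC2 target, had 0.0631 and 0.303 in HET and 0.0289, 0.0312 and 0.177 in KO. The stretch upstream of its start is printed because CpG-rich promoters of this kind are where PRC2 is known to gather. It covers 250 bases at chr4:89294620-89294869, minus strand (RefSeq, GRCm38.p6, the first of 2 starts in the table), with each CpG in capitals.
Cdkn2a: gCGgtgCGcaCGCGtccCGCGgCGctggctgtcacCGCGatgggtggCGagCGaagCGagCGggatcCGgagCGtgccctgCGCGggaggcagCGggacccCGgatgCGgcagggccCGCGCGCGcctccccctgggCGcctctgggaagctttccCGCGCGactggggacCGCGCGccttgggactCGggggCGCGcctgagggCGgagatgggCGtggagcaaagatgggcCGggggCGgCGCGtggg
This window held 40 CpG. The median over 38 listed Polycomb targets with an entry was 16.5, over the 8382 tested genes with an entry it was 16, and over all 27025 upstream windows in the table it was 6.

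A search for any gene that left silence found few. Of 12509 symbols under an FPKM of 1 in both HET libraries, 16 reached 1 in all 3 KO libraries and 7 reached 5, all of these 7 being small RNA genes. The named protein-coding genes among the 16 crossed the line by little: Plekha8 had 0.869 and 0.747 in HET and 1.34, 1.37 and 1.59 in KO. Zranb3 had 0.949 and 0.861, then 1.16, 1.15 and 1.22, and Wfs1, Zfp300 and H2-Eb2 likewise stayed under 2 in every library. In the reverse direction 8 of 12460 symbols under 1 in all KO libraries reached 1 in both HET libraries, among them Aldoc (1.14 and 2.00, then 0.934, 0.874 and 0.627). The genes in this search were chosen for their values.

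The genes that define a Treg kept their levels. All 27 tested Treg identity genes were held within 2-fold and 25 within 1.5-fold. Foxp3 (chromosome X, 7579676 to 7595243), the lineage factor, had FPKM of 93.7 and 89.8 in HET and 91.7, 84.7 and 87.0 in KO, a log2 difference of -0.06 (SE 0.10, 95% interval -0.29 to 0.16). Il2ra, the alpha chain of the IL-2 receptor, had 115 and 130, then 111, 117 and 133, and Ctla4, a co-inhibitory receptor, had 63.9 and 79.2, then 59.1, 67.9 and 66.6. The groups overlapped for Foxp3, Il2ra and Ctla4. Ikzf2 (Helios), a factor of thymus-derived Tregs, had a log2 difference of -0.12 (95% interval -0.36 to 0.13). Gitr, Ox40 and Garp had slightly lower KO values without overlap. Tnfrsf4 (Ox40), a costimulatory receptor, had 135 and 148 in HET and 121, 110 and 114 in KO (log2 -0.29, SE 0.09, unadjusted p = 0.0111). Lrrc32 (Garp), which tethers latent TGF-beta to the Treg surface, had 73.5 and 76.4, then 61.9, 63.5 and 62.6 (log2 -0.25, unadjusted p = 0.0217). Tnfrsf18 (Gitr), another costimulatory receptor, had 184 and 195, then 169, 161 and 164 (log2 -0.20, unadjusted p = 0.0142). In the list 4 genes were lower and 0 higher at an unadjusted p under 0.05 (2.05% and 0.822% of all tested genes), and 9 were lower and 0 higher without overlap. Over all tested genes 14.4% were lower and 7.83% higher without overlap, and the median of the list was -0.11 beside -0.02.

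Among mediators of suppression 15 of 17 were held within 2-fold. Entpd1 (CD39) and Nt5e (CD73), the ectoenzymes that turn ATP into adenosine, had means of 4.75 ± 1.11 and 4.95 ± 0.685, and 29.9 ± 10.98 and 34.3 ± 8.23 (HET, n = 2, then KO, n = 3). Tgfb1, a suppressive cytokine gene, had 77.9 and 67.9, then 69.1, 70.3 and 61.8. The genes not held were Il10, at or under 0.784 in every library, and Tigit, an inhibitory receptor, with 3.90 and 5.70 in HET and 1.70, 2.00 and 4.06 in KO.

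**Figure D2:**
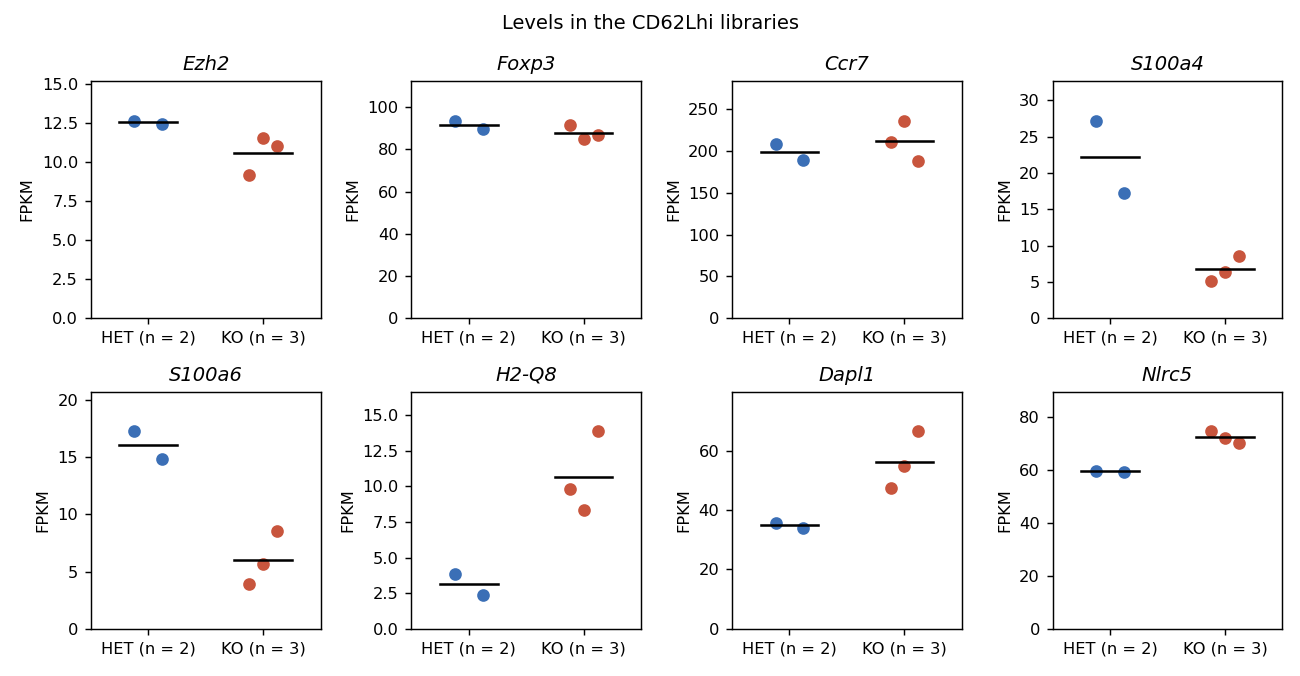
FPKM of 8 genes in each CD62Lhi library, with HET in blue (2 libraries), KO in red (3 libraries) and the group mean as a bar; axes start at 0. Foxp3 and Ccr7 overlap between genotypes, Ezh2, S100a4 and S100a6 lie lower in all 3 KO libraries, and H2-Q8, Dapl1 and Nlrc5 lie higher in all 3.

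Most genes of resting T cells stood at like levels in both genotypes. Ccr7, the chemokine receptor of lymph node entry, had 208 and 189, then 210, 236 and 188. Klf2 and S1pr1, the factor and the receptor of lymph node exit, had log2 differences of 0.02 and 0.05 with 95% intervals of -0.24 to 0.27 and -0.20 to 0.31. Tcf7 and Lef1, factors of naive and memory T cells, had means of 329 ± 22.05 and 345 ± 29.2, and of 114 ± 3.63 and 112 ± 13.7. Bach2, a repressor of effector genes, had 18.5, 19.6, 18.6, 19.9 and 18.8. Of 29 resting T cell genes, 27 were held within 2-fold and 24 within 1.5-fold. The list median was 0.05, and -0.01 without KO replicate 2.

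The resting genes not held within 2-fold were Dapl1 and Igfbp4, both higher in KO. Dapl1 (chromosome 2, 59484653 to 59505020), whose transcript marks naive T cells, had 35.7 and 34.0 in HET and 47.3, 54.7 and 66.5 in KO (log2 0.66, SE 0.23, 95% interval 0.14 to 1.18, unadjusted p = 0.0189). All 3 KO values lay above both HET values. Igfbp4, whose product binds insulin-like growth factors, had 143 and 159, then 203, 186 and 243, again without overlap but with a wide interval (log2 0.47, 95% interval -0.31 to 1.25).

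T cell receptor, cytokine and housekeeping programmes were held within 2-fold, though some of these lists had more lower than higher KO values. All 34 T cell receptor signalling genes were within 1.5-fold, with Lat, the adaptor, at 533, 480, 518, 502 and 431 and Zap70, the kinase, at 123, 123, 123, 119 and 108. Of 26 genes of common gamma chain cytokine signalling all were within 2-fold, and the same held for all 18 TGF-beta and Smad genes and all 39 cell cycle genes. Jak1 had a log2 difference of 0.06 (95% interval -0.06 to 0.18), and Mki67, a marker of dividing cells, had 6.68, 4.68, 4.83, 5.73 and 6.11. All 28 survival and death genes were within 2-fold, with a median of -0.08. Without overlap 9 were lower and 2 higher (14.4% and 7.83% of all tested genes). Bcl2, which protects resting lymphocytes, had 68.6 and 70.3 in HET and 70.0, 69.7 and 76.0 in KO. Its relative Mcl1 had 157 and 172, then 140, 145 and 150 (log2 -0.18, unadjusted p = 0.0599). All 22 glycolysis genes and all 8 GIMAP GTPases were within 2-fold and all 70 nuclear-encoded respiration genes within 1.5-fold. Of the 22 glycolysis genes 8 were lower and 0 higher without overlap, with a median of -0.07. At an unadjusted p under 0.05, 2 of them were lower (2.05% of all tested genes). Of those 70 genes 23 were lower and 2 higher without overlap (14.4% and 7.83% of all tested genes), with a median of -0.06, and Ndufb2, a complex I subunit, had 65.9 and 50.0, then 48.9, 44.5 and 47.0.

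Cytosolic ribosomal protein genes were lower in KO as deposited and after median centring, but shifted little after quantile normalization. As deposited, 51 of 77 were lower without overlap and 0 higher (14.4% and 7.83% of all tested genes), with a median of -0.10. That median was -0.12 to -0.07 when any one CD62Lhi library was left out. After median centring 46 were lower and 0 higher (1298 and 1217 of all 11431 tested genes), with a median of -0.08. After quantile normalization 8 were lower and 4 higher (1376 and 1067 of all 11431 tested genes), with a median of -0.01. Of the 77, 75 were held within 2-fold. Rps27 (305 and 268, then 149, 10.2 and 107) and Rpl26 were not, and ribosomal protein genes have many processed copies among which short reads can be divided.

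Of 21 tested helper-lineage genes 20 were held within 2-fold. For members far under an FPKM of 1 this says little, because the pseudocount narrows their differences. Il1r1, with means of 0.101 in HET and 0.0294 in KO, still counted as held. Without overlap 6 were lower and 1 higher (14.4% and 7.83% of all tested genes). At an unadjusted p under 0.05, 0 differed in either direction, and the list median was -0.07. Gata3, the Th2 factor, had 20.9 and 19.4, then 17.8, 18.5 and 15.02. Tbx21, the Th1 factor, had 1.30 and 0.973, then 0.746, 0.917 and 0.855. Ifng, the Th1 cytokine, was at or under 0.502 in every library. Immediate early and stress genes had lower KO values. Of 28 tested genes 24 had a lower KO mean on the log2 scale, 8 were lower and 0 higher without overlap (14.4% and 7.83% of all tested genes), and 3 were lower at an unadjusted p under 0.05 (2.05%), with a median of -0.15. The count without overlap depended on the scaling. After quantile normalization 4 were lower and 0 higher (1376 and 1067 of all 11431 tested genes), with a median of -0.12. After median centring 5 were lower and 0 higher (1298 and 1217), with a median of -0.14. Of the 28, 26 were held within 2-fold. Nr4a1, induced by T cell receptor signals, had 43.3 and 50.6, then 44.4, 39.0 and 33.6. Hspa1a and Hspa1b, heat shock genes of near-identical sequence, varied widely within a genotype (Hspa1a 2.20 and 0.297, then 4.61, 0.920 and 0.0796) and were not held.

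**Figure D3:**
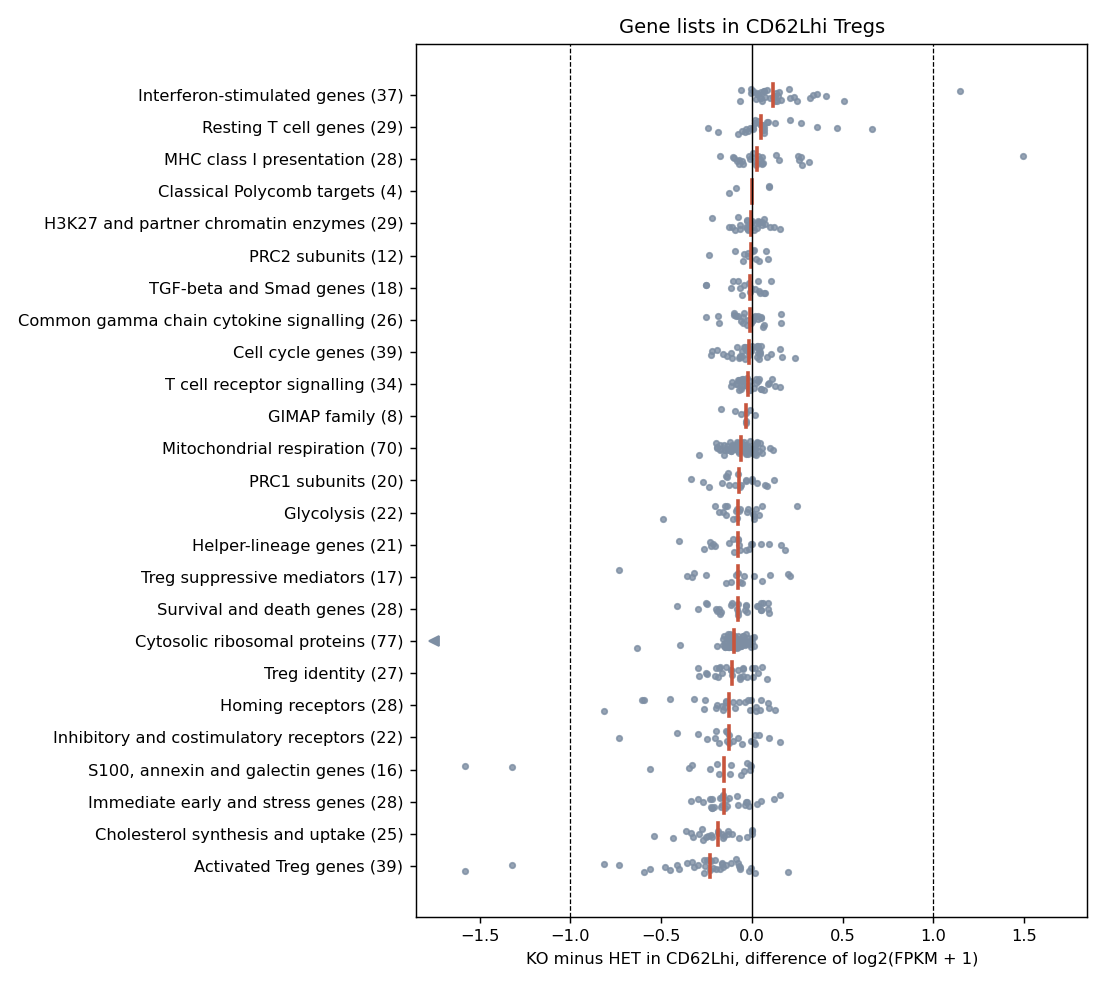
KO minus HET difference of log2(FPKM + 1) in CD62Lhi Tregs for each tested gene of 25 lists, with the number of genes in brackets, the list median as a red bar and the 2-fold bounds as dashed lines. Most points lie between the bounds; the triangle at the left edge is Rps27, which lies beyond the axis at -2.34, and of the lists drawn the activated Treg list has the lowest median at -0.23.

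Genes of activated, tissue-seeking Tregs had lower KO values. Of 39 tested genes of that list, 37 had a lower KO mean on the log2 scale. Without overlap 16 were lower and 0 higher (14.4% and 7.83% of all tested genes). At an unadjusted p under 0.05, 5 were lower and 0 higher (2.05% and 0.822% of all tested genes). The median was -0.23 beside -0.02 over all tested genes, and it was -0.30 to -0.18 when any one CD62Lhi library was left out. Markers of some other cells were also lower in KO. Of 9 tested CD8 T and NK markers 8 had a lower KO mean on the log2 scale (median -0.27). Without overlap 4 of the 9 were lower (14.4% of all tested genes). Of 10 tested myeloid markers all 10 had a lower mean and 1 was lower without overlap (median -0.31). Without HET replicate 1 the medians of these 2 lists were -0.03 and 0.33. Of 14 tested B cell markers 11 had a higher KO mean (median 0.06). The part of other cells in the activated list's difference was not tested. Levels within the list varied widely: Tnfrsf4 had a HET mean of 141.5, whereas Cxcr3 and Ccr4 were low in this fraction. Cxcr3, a chemokine receptor of Th1-type inflammation, had 6.07 and 3.65 in HET and 2.38, 2.61 and 1.86 in KO (log2 -0.81, SE 0.24, unadjusted p = 0.00693). Ccr4, a receptor of skin homing, had 5.16 and 3.99, then 2.28, 2.59 and 3.21 (log2 -0.59, unadjusted p = 0.0141). Both were lower in all 3 KO libraries, but not past the adjusted threshold. Lag3 and Maf, also in the list, overlapped between genotypes. Lag3, an inhibitory receptor, had 6.44 and 7.95, then 5.22, 6.18 and 9.40. Maf, a factor of effector Tregs, had 6.04 and 6.27, then 4.63, 4.71 and 8.81. Cd44, the adhesion receptor that rises on activated T cells, had 11.04 and 12.1, then 10.3, 10.5 and 10.4, and, though lower in all 3 KO libraries, was held within 1.5-fold.

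S100a4 and S100a6, small calcium-binding proteins of motile and activated cells that lie close together on chromosome 3, had the lowest log2 differences of the 15 lowered genes that the naming rule took by size. S100a4 (90603770 to 90606045) had FPKM of 27.2 and 17.2 in HET and 5.18, 6.42 and 8.55 in KO. The means were 22.2 ± 7.07 (n = 2) and 6.72 ± 1.70 (n = 3), a log2 difference of -1.58 (SE 0.23, 95% interval -2.10 to -1.05, unadjusted p = 6.75e-05, adjusted p = 0.771). S100a6 (90612894 to 90614414) had 17.3 and 14.8, then 3.95, 5.67 and 8.55, a log2 difference of -1.32 (SE 0.28, 95% interval -1.96 to -0.68, unadjusted p = 0.00109, adjusted p = 1). For each gene both HET values lay above all 3 KO values. In CD62Llo libraries S100a4 stood at 205, 212 and 251 in HET and 44.1, 65.2 and 55.3 in KO, so its CD62Lhi level was lower than in CD62Llo within each genotype. Myeloid cells also express these genes. HET replicate 1, with the highest S100a4 value, 27.2, also had the highest summed myeloid level, 82.3. HET replicate 2, with an S100a4 value of 17.2, had a myeloid sum of 27.3, below that of KO replicate 2 (48.5), whose S100a4 value was 6.42. The part of myeloid cells in the S100a4 difference was not tested. Whether the share of activated cells within the CD62Lhi gate differed was not tested.

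The windows of 250 bases before the starts of both genes are printed because these nearby genes had the lowest differences together, with each CpG in capitals for comparison with Cdkn2a above (RefSeq, GRCm38.p6, plus strand, chr3:90603520-90603769 for S100a4 and chr3:90612644-90612893 for S100a6).
S100a4: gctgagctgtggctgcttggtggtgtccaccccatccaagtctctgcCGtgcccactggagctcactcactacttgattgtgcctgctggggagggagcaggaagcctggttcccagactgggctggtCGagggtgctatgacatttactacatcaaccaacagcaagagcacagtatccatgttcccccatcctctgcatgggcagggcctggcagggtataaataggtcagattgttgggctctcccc
S100a6: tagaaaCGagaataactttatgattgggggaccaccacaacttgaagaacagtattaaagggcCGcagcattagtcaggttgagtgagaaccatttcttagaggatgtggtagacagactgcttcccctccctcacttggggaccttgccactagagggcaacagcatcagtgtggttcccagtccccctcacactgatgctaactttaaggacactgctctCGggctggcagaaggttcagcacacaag
These windows held 2 and 3 CpG, against 40 for Cdkn2a. The median was 3.5 over 18 S100, annexin and galectin genes with an entry beside the medians of 16 for tested genes and 6 for all windows given above.

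The rest of the S100, annexin and galectin list had smaller differences of the same sign. Counted with S100a4 and S100a6, all 16 tested members had a lower KO mean on the log2 scale, with a median of -0.15. Of the 16, 8 were lower without overlap (14.4% of all tested genes) and 4 at an unadjusted p under 0.05 (2.05%). S100a4 and S100a6, already singled out by their size, are among both the 8 and the 4. Some members barely differed, with log2 -0.004 for Anxa6 and -0.009 for Lgals9. Within 2-fold, 13 of the 16 were held. S100a11 had 94.2 and 96.4 in HET and 72.5, 75.0 and 76.5 in KO (log2 -0.35, unadjusted p = 0.00967). S100a10, the partner of annexin A2, had 348 and 333, then 294, 285 and 317 (log2 -0.19). Lgals1 (galectin-1), a secreted lectin, had 108 and 109, then 89.0, 84.5 and 84.6 (log2 -0.33, unadjusted p = 0.0656). Anxa6 had 181 and 183, then 187, 180 and 179, and Lgals9 119 and 129, then 125, 124 and 120, with overlapping groups.

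Interferon-stimulated genes had slightly higher KO values. Of 37 tested genes 33 had a higher KO mean on the log2 scale, 11 were higher and 0 lower without overlap (7.83% and 14.4% of all tested genes), and 3 were higher at an unadjusted p under 0.05 (0.822%). The list median was 0.11 beside -0.02, with 36 of 37 held within 2-fold. It was 0.02 without HET replicate 1 and 0.07 without KO replicate 3, so its size rested in part on those libraries. Ifit3, an antiviral protein induced by interferon, had 20.6 and 24.8 in HET and 28.8, 26.6 and 32.7 in KO (log2 0.36, SE 0.15, unadjusted p = 0.0405). Mx1, an antiviral GTPase, had 4.09 and 5.50, then 7.30, 5.46 and 9.20, with KO replicate 2 within the HET range. Ifi44 had 1.09 and 0.939, then 1.36, 5.29 and 4.96, a difference carried by KO replicates 2 and 3. Isg15 (55.0 and 75.2, then 74.4, 60.6 and 77.1) and Igtp (154 and 176, then 169, 154 and 181) overlapped.

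The window before the start of Ifit3 is printed to show the elements by which interferon-activated factors bind such genes (RefSeq, GRCm38.p6, plus strand, chr19:34583279-34583528). Capitals mark matches, on either strand, to GAAA, then any 2 bases, then GAAA, the core of the interferon-stimulated response element.
Ifit3: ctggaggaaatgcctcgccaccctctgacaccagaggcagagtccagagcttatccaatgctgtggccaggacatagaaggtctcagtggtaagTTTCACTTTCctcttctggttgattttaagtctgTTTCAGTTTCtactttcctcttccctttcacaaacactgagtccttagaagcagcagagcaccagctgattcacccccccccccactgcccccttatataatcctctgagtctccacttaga
This window held 2 matches. At least 1 match was found in 12 of the 27 interferon-stimulated genes with an entry (44.4%), in 2.74% of the 8382 tested genes and in 3.04% of all 27025 windows of this length. A match describes the letters only.

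Class I presentation genes, a list added after the values were seen, held 3 higher and 1 lower member of 28 at an unadjusted p under 0.05 (0.822% and 2.05% of all tested genes), with a median of 0.03 (-0.02 without HET replicate 2). Nlrc5 (chromosome 8, 94472763 to 94527272), the transactivator of class I genes, had 59.6 and 59.4 in HET and 74.7, 72.2 and 70.3 in KO (log2 0.28, SE 0.05, 95% interval 0.17 to 0.39, unadjusted p = 0.000286, adjusted p = 0.981). The KO values were higher in 3 of 3 libraries and Nlrc5 was still held within 1.5-fold. Its classical targets stayed level: H2-K1 had 2600.2 and 2495, then 2732, 2612 and 2346, and B2m, the class I light chain, had 2806 and 2880, then 2869, 3025 and 2983. H2-Q8 (chromosome 17, 35424847 to 35428361), a non-classical class I gene, had the highest log2 difference of the 15 raised genes that the naming rule took by size, with 3.88 and 2.40 in HET and 9.81, 8.36 and 13.9 in KO (log2 1.49, SE 0.29, 95% interval 0.84 to 2.14, unadjusted p = 0.000522, adjusted p = 1). This value is uncertain, because H2-Q6, H2-Q7 and H2-Q9 are near-identical copies at over 10 times its level. H2-Q6 had 367 and 257, then 433, 391 and 331, and H2-Q9 had 392 and 307, then 445, 439 and 375, both overlapping.

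Cholesterol synthesis and uptake genes, also listed after their values were seen, had lower KO values. Of 25 genes 23 had a lower KO mean on the log2 scale, 14 were lower and 0 higher without overlap (14.4% and 7.83% of all tested genes) and 6 were lower at an unadjusted p under 0.05 (2.05%), and all 25 were held within 2-fold. The median was -0.19, and -0.13 without KO replicate 3, which often had the lowest values. Cyp51, a demethylase of the sterol pathway, had 8.24 and 8.52 in HET and 6.73, 6.17 and 5.02 in KO (log2 -0.43, SE 0.14, unadjusted p = 0.014). Fdft1, squalene synthase, had 10.2 and 11.1, then 8.78, 8.90 and 7.39 (log2 -0.32, SE 0.08, unadjusted p = 0.00362). Srebf2, the factor that drives the pathway, overlapped with 57.0 and 60.7, then 57.6, 58.2 and 44.0.

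**Figure D4:**
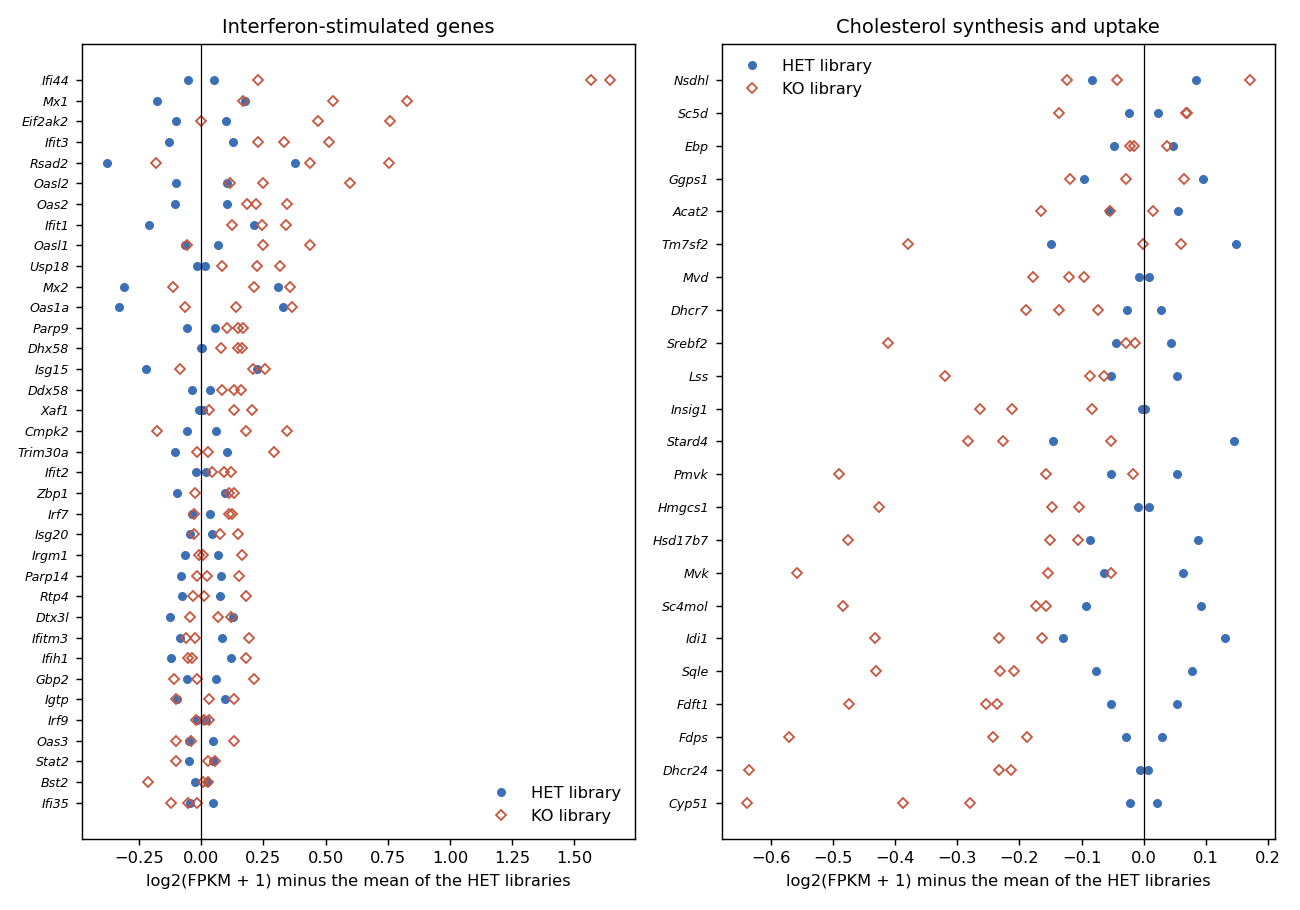
Each CD62Lhi library's log2(FPKM + 1) minus the mean of the 2 HET libraries, for 36 of the 37 interferon-stimulated genes (left) and 23 of the 25 cholesterol genes (right); blue circles are HET and red diamonds KO libraries. KO points lie mostly right of 0 on the left panel, led by Ifi44 and Mx1, and left of 0 on the right panel, where KO replicate 3 often lies farthest.

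Further genes picked by the naming rule had differences under 1 on the log2 scale. The rule took the 15 most raised and 15 most lowered of 47 and 175 eligible genes, and none passed the adjusted threshold. Herc6, an interferon-induced ubiquitin ligase family gene, had 9.92 and 9.47 in HET and 11.9, 12.9 and 12.9 in KO (log2 0.34, SE 0.07, unadjusted p = 0.000554). Iigp1, an interferon-inducible GTPase, had 23.2 and 23.01, then 27.8, 27.7 and 40.0 (log2 0.42), and Ly6a (Sca-1), a surface protein that interferons induce, had 127 and 106, then 145, 143 and 173 (log2 0.40). In CD62Llo libraries Ly6a was called in the opposite direction, lower in KO (log2 -0.79, adjusted p = 0.0119). Myo6, an actin motor, Ctnna1, a linker of adherens junctions, and Dnajc15, a mitochondrial chaperone, had log2 differences of 0.40, 0.30 and 0.41. On the lower side Tob1, an inhibitor of T cell proliferation, had 15.8 and 16.1, then 12.04, 12.15 and 12.21 (log2 -0.37, SE 0.07, unadjusted p = 0.000343). Atpif1, the inhibitor of mitochondrial ATP synthase, had 67.4 and 74.2, then 49.8, 52.7 and 54.0 (log2 -0.43), and Alkbh2, a DNA repair enzyme, had 8.09 and 6.78, then 5.54, 5.78 and 5.31 (log2 -0.36). Cdkn1b (p27), a cell cycle inhibitor high in resting cells, had 60.8 and 60.7, then 50.8, 50.5 and 54.6 (log2 -0.22), and Tob1, Atpif1, Alkbh2 and Cdkn1b were all held within 2-fold.

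Small RNA genes were the exception to the close match. Of 283 tested, 179 were not held within 2-fold. With the CD62Lhi libraries fitted alone, limma called 5 genes (0.0437%) at an adjusted p of 0.05, all small RNAs. Snord1a had 237 and 217 in HET and values of at most 0.000485 in KO, whereas Snord1b, encoded nearby on chromosome 11, was listed at 0 in both HET libraries and had 39.7, 42.8 and 90.9 in KO. Snord58b was listed at 0 in HET and had 733, 928 and 1968 in KO, and Snord72 and Mir1943 had the same pattern. These genes are shorter than a usual library fragment and were measured in poly(A)-selected libraries. Snord58b also differed within groups of the CD62Llo libraries, with 1507, 0 and 1230.1 in HET and 10108, 4292 and 0 in KO.

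The genes that differed between KO and HET CD62Llo Tregs differed far less, but mostly in the same direction, in CD62Lhi Tregs. In CD62Llo the same fit called 526 genes (4.6%), 155 higher (1.36%) and 371 lower (3.25%) in KO. The count was 182 without HET CD62Llo replicate 2, 184 without KO CD62Llo replicate 1, 284 without KO CD62Llo replicate 3 and 303 without HET CD62Llo replicate 3, and 755 with the replicate number as a block. The CD62Lhi contrast shares no library with the one that chose these genes, though the spread was estimated jointly. Both fractions carry the same replicate numbers, and whether their libraries came from the same mice is not given. The 2 contrasts may thus not be independent, which was not tested. Of the 155 higher genes 121 (78.1%) had a higher KO mean in CD62Lhi, against 41.6% of all tested genes. Of the 371 lower genes 314 (84.6%) had a lower KO mean, against 58.3%. At an unadjusted p under 0.05 in CD62Lhi, 7 of the 155 and 40 of the 371 differed in the same direction and 2 of each in the opposite one. The median log2 difference in CD62Lhi was 0.06 for the higher and -0.10 for the lower genes, and 151 and 366 of them were held within 2-fold. Their CD62Llo medians were 0.44 and -0.52, which the choice of genes by their CD62Llo values inflates. The difference of the 2 contrasts was itself called for 1 of all 11431 genes (0.00875%), Mir1905, and reached an unadjusted p under 0.05 for 868 (7.59%).

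Single genes of the resting and activated lists that were called in CD62Llo are given as examples. Their choice by CD62Llo values makes a smaller CD62Lhi difference likely. The difference between the fractions was called for none of them. Bach2, Klf2 and S1pr1 were higher in KO CD62Llo (log2 0.57, 0.70 and 0.70, adjusted p = 0.00386, 0.00784 and 0.00784), while in CD62Lhi their differences were 0.01, 0.02 and 0.05. Icos, a costimulatory receptor, was lower in KO CD62Llo (log2 -1.12, adjusted p = 0.00817) and in CD62Lhi had 16.8 and 19.96, then 12.4, 16.2 and 17.6. Satb1, a chromatin organizer of naive T cells, had differences of 0.84 (adjusted p = 0.00172) and 0.09. S100a4, S100a6, Cxcr3, Ccr4 and Dapl1 were called in CD62Llo (log2 -2.01, -2.03, -1.35, -1.46 and 1.38), and their CD62Lhi differences were -1.58, -1.32, -0.81, -0.59 and 0.66. By list, 23 of 39 activated genes were called lower in CD62Llo (3.25% of all tested genes) and 14 of 29 resting genes higher (1.36%). In CD62Lhi 0 of either list were called (0% of all tested genes). A call in 1 fraction and not in the other is no test of a difference between them, and that test called only Mir1905.

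**Figure D5:**
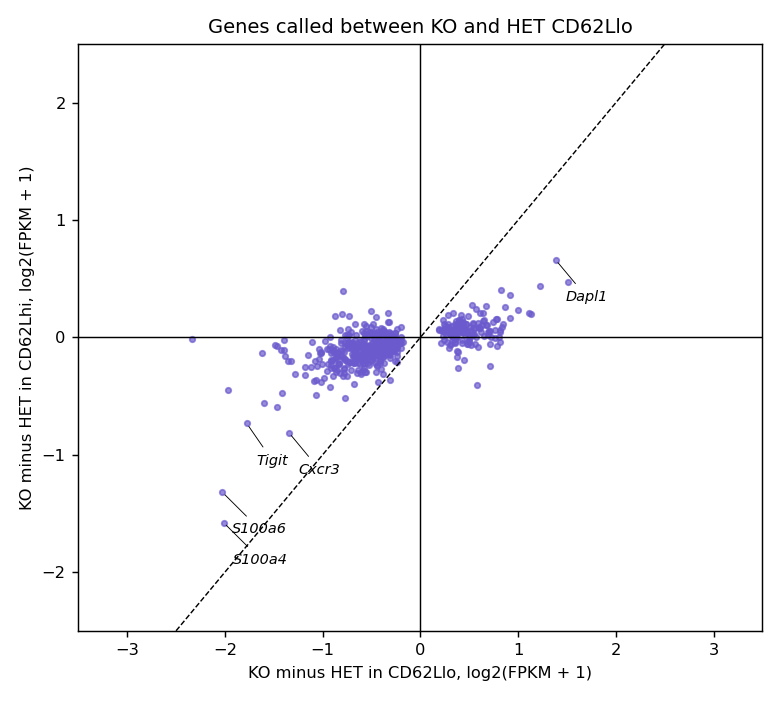
KO minus HET difference of log2(FPKM + 1) in CD62Llo (x axis) and CD62Lhi (y axis) for 524 of the 526 genes called in CD62Llo (2 lie outside the drawn range); the dashed line marks equal differences. Points lie close to the horizontal zero line and mostly on the same side of 0 in both fractions, with S100a4 and S100a6 the farthest down.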

How the data were processed

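RNA from sorted Tregs was read from poly(A)-selected libraries as single ends of 50 bases, per the labels' protocols. The deposited FPKM values were computed by the authors; the submitters' processing notes name Cufflinks 2.1.1, TopHat, CASAVA 1.8.2 and FastQC and the build mm10, without settings. The deposited lower and upper FPKM bounds were used only for the implied depth, the interval half-widths and the share of entries beyond them. Of CD62Lhi entries above an FPKM of 1, 16.6% to 30.8% by library exceeded their own upper bound, so the depths are uncertain.

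Entries of the 250 of 23352 symbols with more than 1 were summed. In R 4.3.3, limma 3.58.1 was fitted to log2(FPKM + 1) of 11 libraries with 4 group means (trended empirical Bayes, Benjamini-Hochberg adjustment at 0.05); the 2-fold and 1.5-fold bounds were tested on the same fit. The script was tested on simulated data. Lists are described by counts and medians, with no test of a list. "Without overlap" means that all values of 1 genotype lie beyond all of the other. Genes were named by rule: per direction the 15 largest differences at unadjusted p under 0.05, without overlap and with the higher group's mean FPKM at 5 or more, except predicted genes, small RNAs, receptor segments and pseudogenes; genes called in either fit; per list the 2 most abundant and the 2 with the largest differences; and a set list. Other list members were named after their values were seen. Members, lists and rules were chosen with earlier results of these data known. Alternatives covered the pseudocount, the filter, quantile and median scaling, the trend, the CD62Lhi libraries alone, a replicate block and leaving out each library. Some genes that the rule takes are not reported here. As a check of pairing, each library's departures from its group's mean were correlated between KO and HET libraries. In CD62Llo r was 0.165, 0.153 and 0.148 for libraries sharing a replicate number, and -0.237 to 0.084 for the others. The numbers thus pair the CD62Llo libraries weakly, by correlation alone. In CD62Lhi r was 0.07 and -0.03 for shared numbers. With 2 HET libraries their departures mirror each other, so the check cannot decide pairing there.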

Additional observations from a re-analysis of the deposited data

Results flagged for a closer look

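For Mir1905 (mm10 chromosome 3, 88536301 to 88536382), a microRNA gene, the KO minus HET difference was not the same in the CD62L fractions. In CD62Lhi its FPKM were 60.9 and 152 in HET and 195, 120 and 128 in KO, a log2 difference of 0.58 with overlapping groups. In CD62Llo it was listed at 0 in all 3 HET libraries and had 230, 209 and 143 in KO. The difference between the fractions was -7.00 on the log2 scale (SE 0.47, adjusted p = 0.000906, limma with Benjamini-Hochberg), and it was the only gene called in that test. A fitted difference against libraries at 0 depends on the pseudocount and is no estimate of its size.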

How the results depend on the processing

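The count of 0 called genes between KO and HET CD62Lhi became 5 when the CD62Lhi libraries were fitted alone, and 0 to 5 when each library in turn was left out, including 1 without HET CD62Lhi replicate 1 and 5 without HET CD62Lhi replicate 2; small RNA genes made up all of these calls. It stayed at 0 under the other pseudocounts, filters and scalings and without the trend. The number held within 2-fold was 16866 of 17238 genes with no filter beyond an FPKM above 0 in 2 libraries, 10682 at a pseudocount of 0.1, and 10888 to 11103 when each library was left out. In CD62Llo the count of 526 was 182 to 610 when each library was left out, lowest without HET CD62Llo replicate 2 (182), KO CD62Llo replicate 1 (184), KO CD62Llo replicate 3 (284) and HET CD62Llo replicate 3 (303). The count of 1 gene called between the fractions was 10 at a pseudocount of 5, 4 without the filter, 3 without the trend, and 1 to 5 with a library left out. Of the named genes' log2 differences, none changed sign and was called under any alternative; 969 of the recomputed values stayed on their side of the threshold and 9, all of small RNAs, crossed it. Of recomputed 2-fold bounds 1600 stayed and 33 no longer passed, among them bounds of Pax5, Cd79a and Il7r. The labels give the groups the same replicate numbers but no shared litter or day. By correlation the numbers pair the CD62Llo libraries weakly, and for CD62Lhi the check cannot decide, because there are 2 HET libraries. Pairing between the fractions was not checked. The fit with the replicate block called 0 genes in CD62Lhi, held 11106 within 2-fold, called 755 in CD62Llo and called 1 between the fractions. With 2 HET libraries, small differences in low genes could not be resolved.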
